A study of Mus musculus with 15 samples.

Results

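Fibroblast growth factor 21 (Fgf21), its co-receptor beta-Klotho (Klb) and the 4 FGF receptors (Fgfr1, Fgfr2, Fgfr3 and Fgfr4) were followed in mouse liver tumours and normal liver, as 6 of the 23284 genes of a count table of 15 libraries. The 6 genes were chosen by name with earlier results of these same counts known. The values that chose them are their levels and group differences in these libraries, so those are given here as a description and support nothing further.

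Polyadenylated RNA had been sequenced in a study of how removal of Hmgb1, a chromatin protein that dying cells also release as an alarm signal, bears on liver cancer. The first group held 6 hepatocellular carcinomas from Hmgb1 fl/fl mice that expressed Albumin-Cre (Hmgb1-deleted tumours), and the second held 6 from Hmgb1 fl/fl control mice (floxed tumours). Both kinds of mice had received diethylnitrosamine (DEN, a mutagen), 25 mg/kg, at day 15 of life, and carbon tetrachloride (CCl4, a liver toxin), 0.5 µl/g weekly for 15 weeks from week 8. The third group held 3 normal livers of C57Bl/6 mice, with no treatment named. Albumin-Cre acts in hepatocytes and other liver epithelium, so the other cells of a tumour keep Hmgb1. The strain of the floxed mice and the number of mice behind the 12 tumours are not stated in the labels, and p-values therefore measure the spread between these samples. Tumour and normal liver differ in tissue, allele and treatment at once, and these cannot be told apart.

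FGF21 is a hormone made mainly by the liver, under the control of the fasting receptor PPAR-alpha and of the integrated stress response, the programme that the factor ATF4 runs when protein synthesis is slowed. It signals through an FGF receptor, chiefly FGFR1 in fat and brain, only where beta-Klotho is present. In hepatocytes beta-Klotho pairs with FGFR4 to receive FGF15, a gut hormone that shuts down bile acid synthesis. FGFR2 and FGFR3 mostly answer local FGFs that act with heparan sulfate, and all 4 receptors feed the RAS and ERK cascade, whose output includes Etv factors, Sprouty proteins and dual-specificity phosphatases.

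The promoter windows of Fgf21 and Klb are shown because these are the genes called against normal liver in both tumour groups. They run from 250 bases before to 50 bases after the RefSeq start site in build GRCm38.p6, and 5 of the 6 genes had one. The search used 3 motifs on both strands: TGATGNAA (the site of C/EBP and ATF factors in stress-response genes), CACGTG (an E-box) and the direct repeat that PPAR-alpha binds with its partner RXR. The motifs were chosen after the Fgf21 window had been seen. Capitals mark the matches in the Fgf21 window, at chr7:45615441-45615740 on the minus strand; the first is TGATGNAA read on the opposite strand. The Klb window, at chr5:65348161-65348460 on the plus strand, held none of these letters.
Fgf21: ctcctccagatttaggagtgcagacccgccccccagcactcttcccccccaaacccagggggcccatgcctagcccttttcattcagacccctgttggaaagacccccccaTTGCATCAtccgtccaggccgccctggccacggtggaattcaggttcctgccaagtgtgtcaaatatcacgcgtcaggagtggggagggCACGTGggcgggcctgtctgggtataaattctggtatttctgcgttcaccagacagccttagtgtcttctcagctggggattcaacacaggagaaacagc
Klb: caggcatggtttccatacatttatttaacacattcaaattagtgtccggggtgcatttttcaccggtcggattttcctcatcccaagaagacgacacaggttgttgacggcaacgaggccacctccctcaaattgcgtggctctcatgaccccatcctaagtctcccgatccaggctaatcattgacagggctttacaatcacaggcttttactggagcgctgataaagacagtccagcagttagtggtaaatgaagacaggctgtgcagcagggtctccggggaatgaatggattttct

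Among the windows of all 32851 RefSeq starts, 3.97% held TGATGNAA, 7.15% held CACGTG and 0.0396% held the direct repeat. The Fgfr2 window held 1 CACGTG, and the windows of Fgfr3 and Fgfr4 held no match. The guanine and cytosine content was 58.0% for Fgf21, 48.3% for Klb, 43.7% for Fgfr2, 65.3% for Fgfr4, and 69.7% and 73.0% for the pair of Fgfr3 starts.

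Libraries held 18973246 to 26293378 counts in Hmgb1-deleted tumours, 20191452 to 30929442 in floxed tumours and 23193714 to 26997782 in normal livers. Levels are CPM, which put every library on the same total, with TMM factors that correct for a few abundant genes taking up reads. Hmgb1 itself was at 9.71 to 17.2 CPM in the 6 Hmgb1-deleted tumours, below every floxed tumour (23.2 to 31.5 CPM) and every normal liver (19.1 to 30.9 CPM). Scaled by library totals alone, Hmgb1-deleted tumour 5 (21.8 CPM) lay within the range of the floxed tumours (20.7 to 29.4 CPM). Tumour 2 (20.6 CPM) lay just below that range. The Hmgb1-deleted tumours (11.0 to 21.8 CPM) overlapped the normal livers (17.4 to 26.9 CPM). By exact two-sided permutation the tumour groups differed by -0.88 on the log2(CPM + 1) scale (p = 0.00216, the smallest this design allows; adjusted p = 0.00649). In a principal component analysis Hmgb1-deleted tumours 3, 4 and 6 were closest to the normal livers on the first component (48.1% of variance), and tumours 2 and 5 stood apart on the second (16.6%). Summed hepatocyte markers (6 genes) reached 69293 to 165510 CPM in Hmgb1-deleted tumours, 104810 to 277020 CPM in floxed tumours and 104520 to 131410 CPM in normal livers, and no hepatocyte marker was at 0 in any library. In bulk tissue, fewer cells of a type and less RNA per cell cannot be told apart.

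Fgf21, the hormone, was low in normal liver and spread over a wide range in tumours. In Hmgb1-deleted tumours 1 to 6 it was at 23.8, 66.9, 1.17, 2.97, 73.0 and 6.42 CPM, and in floxed tumours 1 to 6 at 3.24, 6.89, 14.8, 7.35, 1.09 and 11.0 CPM. The 3 normal livers had 0.891, 1.19 and 0.347 CPM, which were 22, 29 and 7 counts. Hmgb1-deleted tumours 2 and 5 held the highest levels and tumour 3 lay among the normal livers, so the tumour groups overlapped, and each overlapped normal liver through its lowest tumour.

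The mean level of Fgf21 was 29.1 ± 32.8 CPM in Hmgb1-deleted tumours, 7.39 ± 4.99 CPM in floxed tumours and 0.809 ± 0.427 CPM in normal livers (SD, n = 6, 6 and 3). The SD was larger than the mean among Hmgb1-deleted tumours. In the fit of the whole table, which called genes at an adjusted p under 0.05, the log2 fold change was 1.98 ± 0.90 (SE) for Hmgb1-deleted against floxed tumours and was not called. It was 5.16 ± 1.505 (SE) for Hmgb1-deleted tumours against normal livers and 3.18 ± 0.78 (SE) for floxed tumours against normal livers, and both were called higher. The call of Hmgb1-deleted tumours against normal livers ended when any 1 of the 3 normal livers was left out, at log2 fold changes of 5.21, 5.52 and 4.81 without normal livers 1, 2 and 3, and that of floxed tumours ended in the fit of all 15 libraries together (3.16).

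Klb, the co-receptor for FGF21 and FGF15, was lower in every tumour than in every normal liver. Hmgb1-deleted tumours 1 to 6 had 14.2, 13.5, 14.7, 13.1, 13.5 and 12.5 CPM, and floxed tumours 1 to 6 had 9.39, 13.3, 7.61, 15.5, 5.96 and 10.04 CPM. Normal livers had 43.0, 39.5 and 43.8 CPM. The Hmgb1-deleted tumours sat inside the range of the floxed tumours and were far closer to one another, with a coefficient of variation of 5.77%, against 34.5% in floxed tumours; the difference in spread was not tested.

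The log2 fold change of Klb was -1.62 ± 0.09 (SE) for Hmgb1-deleted tumours against normal livers and -2.02 ± 0.25 (SE) for floxed tumours against normal livers. Both were called lower under every alternative tried. Hmgb1-deleted against floxed tumours gave 0.41 ± 0.20 (SE), which was not called.

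**Figure D1:**
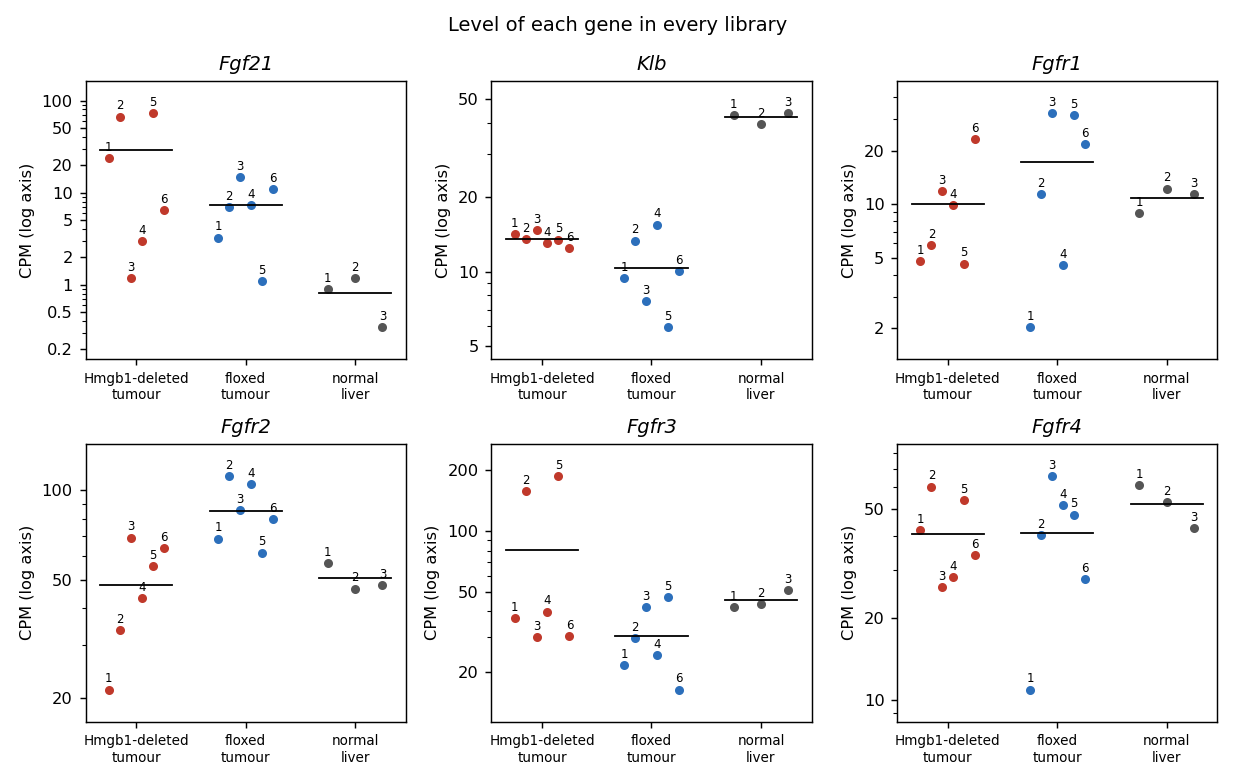
Level of each of the 6 genes in every library, in CPM on a log axis, with the library's number above its point and the group mean as a bar. Klb lies at 39.5 to 43.8 CPM in normal livers and at 5.96 to 15.5 CPM in tumours, and Fgf21 runs from 1.17 to 73.0 CPM among Hmgb1-deleted tumours.

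Fgfr4, the main hepatocyte receptor and the one that works with Klb for FGF15, had overlapping levels in all 3 groups. It was at 41.8, 60.4, 25.8, 28.2, 53.8 and 33.9 CPM in Hmgb1-deleted tumours 1 to 6 and at 10.9, 40.2, 66.1, 51.8, 47.7 and 27.7 CPM in floxed tumours 1 to 6. Normal livers had 61.3, 53.1 and 42.7 CPM. The lowest of all libraries was floxed tumour 1 and the highest was floxed tumour 3.

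Mean Fgfr4 was 40.6 ± 14.0 CPM in Hmgb1-deleted tumours, 40.7 ± 19.4 CPM in floxed tumours and 52.4 ± 9.30 CPM in normal livers (SD). Log2 fold changes were 0.0053 ± 0.35 (SE) for Hmgb1-deleted against floxed tumours, -0.35 ± 0.27 for Hmgb1-deleted tumours against normal livers and -0.35 ± 0.42 for floxed tumours against normal livers, and none was called. The first of these has no stable sign, since it was -0.025 with RLE scaling. Without Hmgb1-deleted tumours 2 and 5 the second was -0.68 and was called lower. These tumours held the highest Fgfr4 levels of their group and were left out after seeing the data, so that call is no test.

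Fgfr1, which carries the FGF21 signal in fat and brain, spanned a wide range among tumours. Its lowest, median and highest levels were 4.62, 7.88 and 23.1 CPM in Hmgb1-deleted tumours and 2.03, 16.6 and 32.5 CPM in floxed tumours. Normal livers had 8.91, 12.2 and 11.4 CPM. Both tumour groups reached above and below all 3 normal livers.

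The log2 fold change of Fgfr1 was -0.78 ± 0.62 (SE) for Hmgb1-deleted against floxed tumours, -0.10 ± 0.49 for Hmgb1-deleted tumours against normal livers and 0.70 ± 0.72 for floxed tumours against normal livers, none of them called. With Hmgb1-deleted tumours 3, 4 and 6 left out, the second was -1.06 and was called lower. These tumours held the highest Fgfr1 levels of their group and were left out after seeing the data, so that call is no test. Floxed tumour 5, at 31.8 CPM of Fgfr1, had summed stellate cell and fibroblast markers (8 genes) of 1261 CPM, against 213.9 to 330.2 CPM in the other floxed tumours. Its summed endothelial markers (6 genes) were 403 CPM, against 146 to 197 CPM in the other floxed tumours. Macrophage markers (5 genes) summed to 366 CPM in it, against 171 to 309 CPM in the others. Of these, Lyz2 and Cd68 were highest in it among floxed tumours, while Emr1, Clec4f and Csf1r lay within the range of the others. Floxed tumour 3, at 32.5 CPM of Fgfr1, had 284 CPM of the stellate cell and fibroblast markers, 173 CPM of the endothelial and 225 CPM of the macrophage markers. The part of these cells in the spread was not tested.

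Fgfr2, the receptor of epithelia for local FGFs, was higher in floxed tumours than in normal liver. It was at 21.3, 33.7, 69.2, 43.2, 55.5 and 63.8 CPM in Hmgb1-deleted tumours 1 to 6 and at 68.8, 112, 85.8, 104.8, 61.6 and 79.9 CPM in floxed tumours 1 to 6. Normal livers had 57.0, 46.6 and 48.0 CPM. Every floxed tumour lay above every normal liver, while the Hmgb1-deleted tumours fell on both sides of the normal livers and overlapped the floxed tumours at their upper end.

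Mean Fgfr2 was 47.8 ± 18.4 CPM in Hmgb1-deleted tumours, 85.5 ± 19.8 CPM in floxed tumours and 50.5 ± 5.63 CPM in normal livers (SD). The log2 fold change of floxed tumours against normal livers was 0.77 ± 0.20 (SE) and was called higher, a call that ended without normal liver 2 (0.71) and in the fit of all 15 libraries together (0.76). For Hmgb1-deleted against floxed tumours it was -0.83 ± 0.26 (SE) and was not called by edgeR, but was called lower by DESeq2 (-0.85), in the fit of all 15 libraries (-0.84) and without Hmgb1-deleted tumours 3, 4 and 6 (-1.25). That last split was chosen after seeing the data and took out tumours 3 and 6, the highest of the group in Fgfr2. Hmgb1-deleted tumours against normal livers gave -0.06 ± 0.32 (SE).

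Fgfr3, a receptor best known for restraining bone growth, was raised in a pair of Hmgb1-deleted tumours. Tumours 1 to 6 of that group had 37.2, 157, 29.8, 39.9, 188 and 30.2 CPM, and floxed tumours 1 to 6 had 21.6, 29.5, 42.0, 24.3, 47.1 and 16.4 CPM. Normal livers had 42.1, 43.6 and 51.2 CPM. Hmgb1-deleted tumours 2 and 5 stood above all other libraries, and the other 4 lay within the range of the floxed tumours.

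Mean Fgfr3 was 80.4 ± 72.2 CPM in Hmgb1-deleted tumours, 30.1 ± 12.1 CPM in floxed tumours and 45.6 ± 4.87 CPM in normal livers (SD). The log2 fold change of Hmgb1-deleted against floxed tumours was 1.42 ± 0.51 (SE), not called by edgeR and called higher by DESeq2 (1.39). It was 0.84 ± 0.68 (SE) for Hmgb1-deleted tumours against normal livers, and -0.40 without tumours 2 and 5. Floxed tumours against normal livers gave -0.58 ± 0.30 (SE), not called, and -0.76 with a call of lower once floxed tumour 5 was left out.

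Cell type markers were read in the tumours high in Fgf21 and Fgfr3 as well. Summed cholangiocyte markers (6 genes, bile duct epithelium) were 6277 CPM in Hmgb1-deleted tumour 2 and 1164 CPM in tumour 5, against 198.7 to 979.4 CPM in the other 4, 58.9 to 1757 CPM in floxed tumours and 67.8 to 79.5 CPM in normal livers. Nearly all of this sum was Spp1, a secreted phosphoprotein, at 6186 CPM in tumour 2 and 1142 CPM in tumour 5. Of the other 5, Epcam (24.3 CPM) and Cftr (9.46 CPM) were highest of all libraries in tumour 2, Sox9 (54.3 CPM) was below floxed tumour 5 (61.0 CPM), and the keratins Krt19 and Krt7 in tumours 2 and 5 lay within the range of the floxed tumours. Tumour 5 was above every floxed tumour in none of the 6. The summed hepatocyte markers of tumours 2 and 5, 69293 and 87860 CPM and mostly Alb, were the lowest of all libraries, and no marker of either list was at 0. Alb and Ttr were lowest of all libraries in these tumours, and Apoa1 was below every floxed tumour. Hnf4a and Tat lay within the floxed range in both tumours. Cps1 did so in tumour 5 and was below every floxed tumour in tumour 2. Summed macrophage markers (5 genes) were 411 CPM in tumour 2 and 486 CPM in tumour 5, the highest of all libraries. Csf1r and Lyz2 were highest of all libraries in these tumours. Cd68 was within the floxed range in both, and Clec4f was lowest of all libraries in tumour 2. Summed endothelial markers (6 genes) were 103.6 CPM in tumour 2, the lowest of all libraries, and 138 CPM in tumour 5. The stellate cell and fibroblast sums lay within the floxed range. The part of these cells in the levels of Fgf21 and Fgfr3 was not tested.

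Across the whole table, edgeR called 7.78% of 13433 genes for Hmgb1-deleted against floxed tumours (4.45% higher and 3.33% lower), and 0 of the 6 genes were called. At an unadjusted p under 0.05 there were 3 (Fgf21, Fgfr2 and Fgfr3), and DESeq2 called 2 (Fgfr2 and Fgfr3); the genes were chosen on these differences, so the counts are no test of them. For floxed tumours against normal livers 48.7% of 13784 genes were called (24.9% higher and 23.8% lower), and of the 6 genes 2 were higher (Fgf21 and Fgfr2) and 1 was lower (Klb). For Hmgb1-deleted tumours against normal livers 34.7% were called (18.1% higher and 16.6% lower), and 1 was higher (Fgf21) and 1 lower (Klb). The tumour groups share the 3 normal livers in these last comparisons. The split of calls depends on the scaling: Hmgb1-deleted against floxed tumours gave 598 higher and 447 lower with TMM and 982 and 257 with library totals, and Hmgb1-deleted tumours against normal livers gave 2492 and 2295 with TMM and 2969 and 1062 with library totals. The median log2 fold change of the 6 genes was 0.21, 0.17 and -0.08 in the same order, against 0.02, 0.06 and 0.05 over all genes tested.

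**Figure D2:**
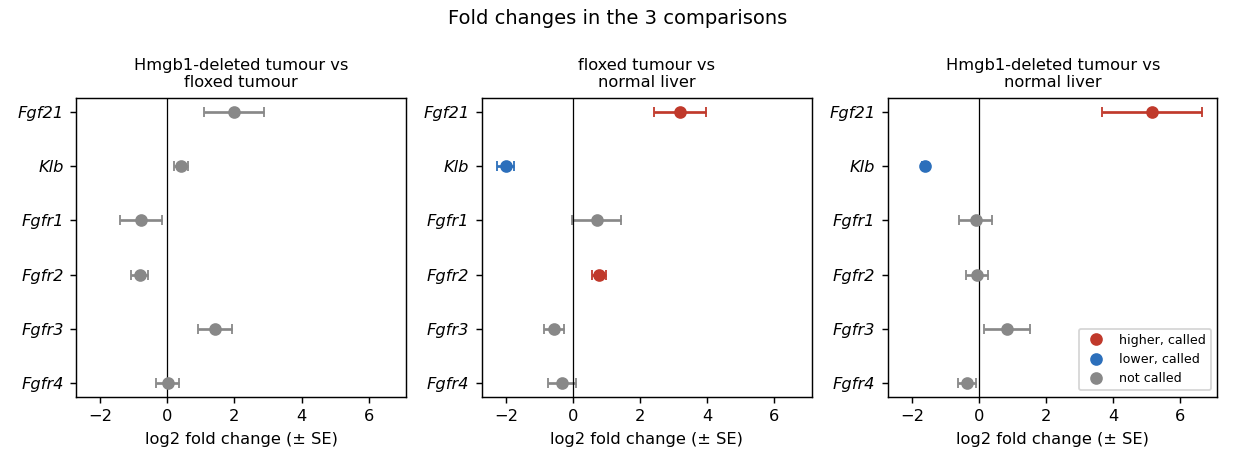
Log2 fold change with its standard error for each gene in each comparison, coloured by its call in the fit of the whole table. Klb is at -1.62 and -2.02 against normal livers, Fgf21 at 5.16 and 3.18, and no point is called for Hmgb1-deleted against floxed tumours.

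The balance between receptors was described by the log2 ratio of Fgfr4 counts to those of each other receptor in the same library, which does not depend on library scaling. These ratios hold gene length as well and are compared only between groups. Fgfr4 to Fgfr2 was -0.20 ± 0.97 in Hmgb1-deleted tumours, -1.24 ± 0.86 in floxed tumours and 0.04 ± 0.19 in normal livers (SD). It was below every normal liver in all 6 floxed tumours, and above 0 in 2 of the Hmgb1-deleted tumours. Fgfr4 to Fgfr1 was 2.201 ± 1.29, 1.62 ± 1.21 and 2.27 ± 0.45 in Hmgb1-deleted tumours, floxed tumours and normal livers, with overlap between all groups. Fgfr4 to Fgfr3 was -0.59 ± 0.82, 0.33 ± 0.74 and 0.19 ± 0.41 in the same groups, lowest in Hmgb1-deleted tumours 2 and 5.

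**Figure D3:**
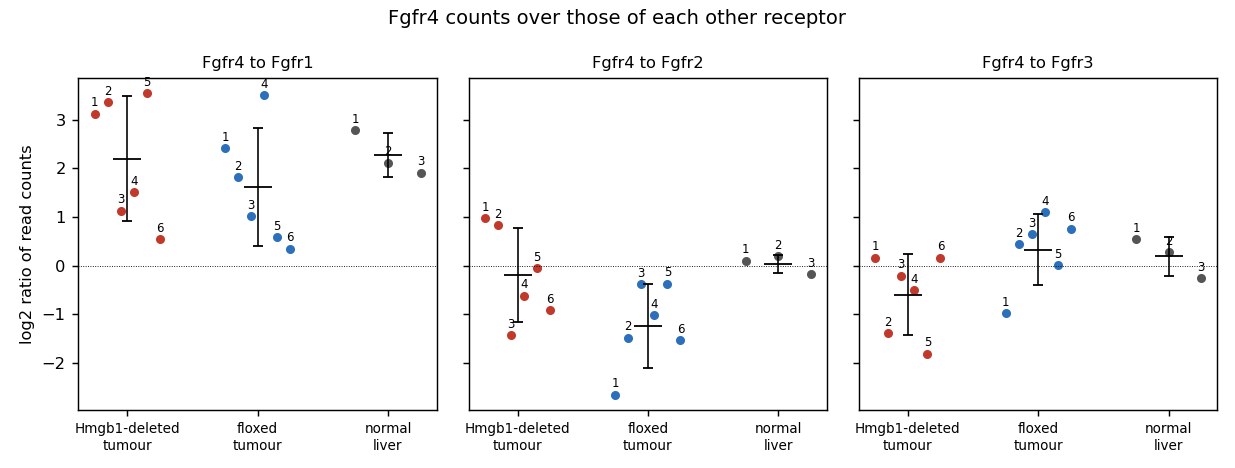
Log2 ratio of Fgfr4 counts to Fgfr1, Fgfr2 and Fgfr3 counts in every library, numbered, with the mean and SD of each group. For Fgfr2 the 6 floxed tumours lie between -2.65 and -0.37, below the normal livers at -0.17 to 0.19.

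Whether the 6 genes vary together among tumours of 1 group was asked over the 12 tumours after group means of log2(CPM + 1) were taken away, a question that the group differences do not fix. The genes were chosen with their levels in these libraries known, so the correlations and their p-values are a description. None of the 15 pairs passed Benjamini-Hochberg adjustment over the 15 permutation tests. Fgfr3 and Fgfr4 had a Pearson r of 0.61 (permutation p = 0.00982, adjusted p = 0.147) and a Spearman rho of 0.73 (permutation p = 0.00908, adjusted p = 0.119). Without the 2 tumours farthest from the median of Fgfr3, Hmgb1-deleted tumours 2 and 5, r was 0.59 (permutation p = 0.172). Fgf21 and Fgfr4 had an r of 0.54 (permutation p = 0.0344, adjusted p = 0.258) and a rho of 0.69 (permutation p = 0.0159, adjusted p = 0.119).

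The Fgf21 and Fgfr4 relation was 0.99 among the 6 Hmgb1-deleted tumours and 0.29 among the 6 floxed tumours, and 0.37 over the 10 left without Hmgb1-deleted tumours 2 and 5. Fgf21 and Fgfr3 had an r of 0.64 (permutation p = 0.0950, adjusted p = 0.356) and a rho of 0.60 (permutation p = 0.122, adjusted p = 0.609). That relation rests on Hmgb1-deleted tumours 2 and 5, since r was -0.13 without them. It was 0.86 among Hmgb1-deleted tumours and -0.32 among floxed tumours.

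**Figure D4:**
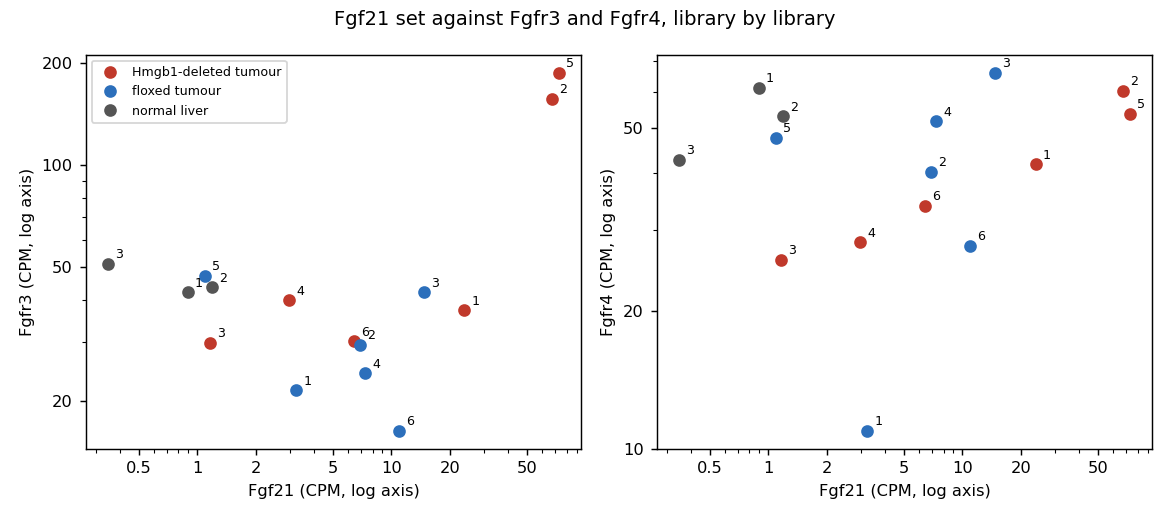
Fgf21 against Fgfr3 (left) and Fgfr4 (right) in every library, in CPM on log axes, coloured by group and numbered. Hmgb1-deleted tumours 2 and 5 hold both the highest Fgf21 (66.9 and 73.0 CPM) and the highest Fgfr3 (157 and 188 CPM), and the Hmgb1-deleted tumours line up for Fgfr4 (r of 0.99 over 6 tumours).

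The genes most like each member were found by Pearson r of log2(CPM + 1) over all 15 libraries with group means taken away, among 12685 other genes with a mean of at least 1 CPM. These are the highest of many correlations and carry no test. Klb came closest to Acadm (0.87), a mitochondrial enzyme of fatty acid oxidation, and then to Nln (0.80), a peptidase. Fgf21 came closest to Sorbs2 (0.94), a cytoskeletal adaptor, Shcbp1 (0.92) and Mad2l1 (0.91), a mitotic checkpoint protein. Fgfr3 came closest to Bhlhb9 and Wnt4 (both 0.96), a WNT ligand that was at 0.796 to 81.2 CPM among Hmgb1-deleted tumours and 0.320 to 5.81 CPM among floxed tumours, and for Wnt4 r was 0.77 without the 2 farthest libraries.

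Fgfr1 came closest to the transcription factor Klf4 (0.92), which was at 2.12 to 6.84 CPM in Hmgb1-deleted tumours, 2.91 to 15.9 CPM in floxed tumours and 1.64 to 1.78 CPM in normal livers. Fgfr2 came closest to Dld (0.89), a shared subunit of mitochondrial dehydrogenases, and Fgfr4 to Zfp318 (0.92) and Fermt2 (0.89), an integrin activator. The other genes named by this rule were 9330133O14Rik (0.80) for Klb, Zxdc (0.89) and Entpd4 (0.87) for Fgfr1, Nsun4 (0.87) and Zdhhc6 (0.86) for Fgfr2, Rbmx (0.95) for Fgfr3 and Mbtps2 (0.88) for Fgfr4. Without the 2 libraries farthest from the member's median, r fell to 0.59 for Zdhhc6, 0.62 for Mbtps2 and 0.68 for Nsun4. For all other genes named by this rule it was 0.76 to 0.92.

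The rest of the pathway was read from 9 lists of 104 genes, written with earlier results of these data known. Of all genes tested, 7.78% were called between the tumour groups. Against normal livers 34.7% were called in Hmgb1-deleted tumours and 48.7% in floxed tumours. Counts in the lists are to be read beside these shares, and no set test was run. Of 17 other FGF ligands only Fgf1, an FGF that binds all receptors, had enough counts to be tested in the filtered edgeR fit. DESeq2, run without that filter, tested 11 of the 17 between the tumour groups and called 1 higher. Fgf1 averaged 46.9 ± 28.2 CPM in Hmgb1-deleted tumours, 32.3 ± 3.70 CPM in floxed tumours and 138 ± 19.6 CPM in normal livers (SD), with every tumour below every normal liver. It was lower in floxed tumours than in normal livers (log2 fold change -2.08 ± 0.13 (SE), adjusted p = 2.95e-06) and in Hmgb1-deleted tumours than in normal livers (-1.54 ± 0.43, adjusted p = 0.0225). The call of Hmgb1-deleted tumours against normal livers ended when any 1 normal liver was left out (adjusted p = 0.0505 to 0.0827).

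Of the 16 ligands that the filtered edgeR fit did not test, 6 had no count in any library, Fgf15 among them, the hormone that uses Klb with Fgfr4 and comes from the gut. Fgf23, a phosphate hormone, reached the highest level of the 16, 0.954 CPM. None of the 4 intracellular FGF homologous factors had enough counts to be tested in that fit.

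Among 9 co-receptors, decoys and binding proteins, 5 were tested between the tumour groups and 1 was higher. Fgfrl1, a receptor-like protein without a kinase domain, had 28.7, 46.9 and 64.9 CPM as its lowest, median and highest levels in Hmgb1-deleted tumours and 17.5, 21.4 and 26.1 CPM in floxed tumours. Normal livers averaged 42.5 ± 6.77 CPM (SD). Every Hmgb1-deleted tumour lay above every floxed tumour, and the log2 fold change was 1.13 ± 0.18 (SE, adjusted p = 0.00476). Floxed tumours lay below all normal livers (-0.96 ± 0.15, adjusted p = 0.000664), and Hmgb1-deleted tumours overlapped them (0.17 ± 0.23, adjusted p = 0.578).

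Flrt2, a membrane protein that binds FGF receptors, was higher than in normal livers in both Hmgb1-deleted tumours (1.37 ± 0.40, adjusted p = 0.0253) and floxed tumours (1.58 ± 0.40, adjusted p = 0.00874). The Hmgb1-deleted call ended when any 1 normal liver was left out (adjusted p = 0.0651 to 0.105). Il17rd, an inhibitor of FGF signalling, averaged 2.23 ± 1.70 CPM in Hmgb1-deleted tumours, 1.93 ± 0.963 CPM in floxed tumours and 1.10 ± 0.210 CPM in normal livers and was not called. Without Hmgb1-deleted tumours 3, 4 and 6, a split chosen after seeing the data, it was called higher in Hmgb1-deleted tumours than in normal livers (1.65, adjusted p = 0.0177).

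Of 15 genes for heparan sulfate, the sugar that local FGFs need at their receptors, 0 were called between the tumour groups by edgeR, 3 had an unadjusted p under 0.05 and 1 was called by DESeq2. Against normal livers 1 was higher and 6 were lower in Hmgb1-deleted tumours, and 2 were higher and 4 lower in floxed tumours. Over all genes 34.7% and 48.7% were called in these comparisons. The 6 lower became 1 with library totals in place of TMM and 2 without normal liver 1. Gpc3, a heparan sulfate carrier of fetal liver and liver cancer, was at 19.7 to 378 CPM in Hmgb1-deleted tumours and 88.8 to 1072 CPM in floxed tumours, against 1.30 to 2.75 CPM in normal livers. Its log2 fold change was 6.20 ± 0.97 (SE, adjusted p = 0.00271) in Hmgb1-deleted tumours and 7.83 ± 0.99 (adjusted p = 0.000160) in floxed tumours against normal livers. Ndst1, which starts sulfation of the chain, was lower in both, at 58.4 ± 13.3 CPM in Hmgb1-deleted tumours and 56.6 ± 12.7 CPM in floxed tumours, against 259 ± 62.4 CPM in normal livers (SD).

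Of 10 genes that relay the signal directly behind the receptors, 1 was lower in Hmgb1-deleted than in floxed tumours, the adaptor Shc1 (-0.53 ± 0.12, adjusted p = 0.0237), and the call ended with library totals in place of TMM (-0.32, adjusted p = 0.153), without floxed tumour 2 (adjusted p = 0.0515) and without Hmgb1-deleted tumours 3, 4 and 6 (adjusted p = 0.0507). Against normal livers 0 were higher and 4 lower in Hmgb1-deleted tumours, and 1 was higher and 5 lower in floxed tumours. The shares of all genes called were 34.7% and 48.7%. The RAS exchange factor Sos1 was lower in both, with log2 fold changes of -0.98 ± 0.11 in Hmgb1-deleted tumours (adjusted p = 0.000921) and -1.33 ± 0.11 in floxed tumours (adjusted p = 1.43e-05). Plcg1, a phospholipase that binds activated receptors, was lower in Hmgb1-deleted tumours than in normal livers (-0.94 ± 0.15, adjusted p = 0.00297). Frs2, the docking protein of FGF receptors, was lower in floxed tumours than in normal livers (-0.57 ± 0.12, adjusted p = 0.00356), a call that ended with library totals in place of TMM (adjusted p = 0.101).

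Of 13 genes of ERK output and feedback, 4 were lower and 0 higher in Hmgb1-deleted than in floxed tumours, with a median log2 fold change of -0.94 and 12 of 13 below 0. Etv4, a transcription factor induced by FGF signalling, was at 0.530 to 1.48 CPM in Hmgb1-deleted tumours and 2.52 to 13.0 CPM in floxed tumours, without overlap (-2.63 ± 0.43, adjusted p = 0.00570). The factor Etv5 (-0.92 ± 0.21, adjusted p = 0.0219) and the feedback inhibitor Spry1 (-0.81 ± 0.14, adjusted p = 0.00713) were lower without overlap, and the early response gene Egr1 was lower with overlap (-1.51 ± 0.32, adjusted p = 0.0153). The Spry1 call ended with library totals in place of TMM (adjusted p = 0.103). Without Hmgb1-deleted tumours 3, 4 and 6 there were 9 lower, and without tumours 2 and 5 there were 4, both splits being chosen after seeing the data.

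Against normal livers the ERK list held 3 higher and 1 lower in Hmgb1-deleted tumours and 6 higher and 0 lower in floxed tumours, with medians of 0.66 and 1.46. Of all genes, 18.1% were higher and 16.6% lower in Hmgb1-deleted tumours, and 24.9% higher and 23.8% lower in floxed tumours. Dusp5, a phosphatase of ERK, averaged 9.43 ± 4.24 CPM in floxed tumours, against 0.391 ± 0.104 CPM in normal livers (log2 fold change 4.59 ± 0.53, adjusted p = 8.53e-05). Etv4 was higher in Hmgb1-deleted tumours than in normal livers too (2.21 ± 0.48, adjusted p = 0.00891).

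Of 12 genes listed around the bile acid arm of FGF15, Klb and Fgfr4, 6 were higher and 0 lower in Hmgb1-deleted than in floxed tumours, with a median of 0.98. The list holds enzymes, transporters and regulators such as Nr1h4, and not only genes that FGF15 holds down. Without Hmgb1-deleted tumours 3, 4 and 6 there were 4 higher and 1 lower with a median of 0.25, and without tumours 2 and 5 there were 6 higher and 0 lower with a median of 1.40. Cyp7a1 encodes the enzyme of the first, rate-limiting step of bile acid synthesis and was at 36.3, 48.2 and 77.4 CPM (lowest, median and highest) in Hmgb1-deleted tumours and at 1.4998, 7.14 and 10.045 CPM in floxed tumours, without overlap. Its log2 fold change was 2.99 ± 0.37 (SE, adjusted p = 0.00131). The conjugating enzyme Baat (1.92 ± 0.29, adjusted p = 0.00427) and the sterol hydroxylase Cyp27a1 (1.56 ± 0.28, adjusted p = 0.00824) were higher without overlap, and the bile acid receptor Nr1h4 was higher with overlap (0.86 ± 0.20, adjusted p = 0.0211). In the same comparison the 6 hepatocyte markers had log2 fold changes on both sides of 0, with 3 above (Tat, Cps1 and Hnf4a) and 3 below (Alb, Ttr and Apoa1). The Nr1h4 call ended without Hmgb1-deleted tumour 4 (0.69, adjusted p = 0.0558) and without Hmgb1-deleted tumours 3, 4 and 6 (0.60, adjusted p = 0.0647).

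Against normal livers the bile acid list held 6 lower in Hmgb1-deleted tumours and 11 lower in floxed tumours and none higher, with medians of -1.37 and -2.21. Cyp8b1, which sets the share of cholic acid, averaged 12.3 ± 4.10 CPM in floxed tumours and 560 ± 160 CPM in normal livers (log2 fold change -5.49 ± 0.31, adjusted p = 1.56e-06). Cyp7b1, a hydroxylase of the alternative route, averaged 37.7 ± 23.5 CPM in Hmgb1-deleted tumours and 413 ± 99.0 CPM in normal livers (-3.44 ± 0.44, adjusted p = 0.00139).

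The programmes known to switch on Fgf21 were followed by their own genes. Of 12 genes of PPAR-alpha and its targets 3 were higher and 0 lower in Hmgb1-deleted than in floxed tumours, with a median of 0.86. Ehhadh, an enzyme of peroxisomal oxidation, was higher (1.76 ± 0.38, adjusted p = 0.0166), as was Cyp4a10, a fatty acid hydroxylase with near copies (3.65 ± 0.92, adjusted p = 0.0299; 0.0542 to 0.0719 in the 6 fits without 1 library that lost the call). Without Hmgb1-deleted tumours 3, 4 and 6 none of the 12 was called by edgeR, and 2 had an unadjusted p under 0.05.

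Of 12 integrated stress response genes 2 were lower and 0 higher in Hmgb1-deleted than in floxed tumours, with a median of -0.11. Psat1, an enzyme of serine synthesis, was at 3.13 to 20.7 CPM in Hmgb1-deleted tumours and 23.4 to 69.4 CPM in floxed tumours, without overlap (-1.84 ± 0.43, adjusted p = 0.0233). Trib3, a pseudokinase induced by ATF4, was lower with overlap (-1.44 ± 0.36, adjusted p = 0.0285), and its call ended when single libraries were left out (highest adjusted p 0.0603) and without Hmgb1-deleted tumours 3, 4 and 6 (adjusted p = 0.0786).

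Against normal livers the PPAR-alpha list held 6 lower in Hmgb1-deleted tumours and 10 lower in floxed tumours, with medians of -1.13 and -1.72. The stress response list held 5 higher and 0 lower in Hmgb1-deleted tumours and 5 higher and 1 lower in floxed tumours, with medians of 0.67 and 0.61. Over all genes 34.7% were called in Hmgb1-deleted tumours (18.1% higher) and 48.7% in floxed tumours (24.9% higher). Asns, the asparagine synthetase, averaged 63.9 ± 22.5 CPM in floxed tumours and 6.53 ± 5.60 CPM in normal livers (log2 fold change 3.31 ± 0.54, adjusted p = 0.000741). Ddit3, the stress factor CHOP, averaged 26.5 ± 12.3 CPM in Hmgb1-deleted tumours and 6.74 ± 1.28 CPM in normal livers (1.99 ± 0.42, adjusted p = 0.00787). Psat1 was higher in both, with log2 fold changes of 3.86 ± 0.72 in Hmgb1-deleted tumours (adjusted p = 0.00495) and 5.70 ± 0.38 in floxed tumours (adjusted p = 3.46e-06).

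Rxra, the partner receptor of PPAR-alpha, and Pdk4, a brake on glucose oxidation, were lower in Hmgb1-deleted tumours than in normal livers, with log2 fold changes of -1.25 ± 0.27 (adjusted p = 0.00809) and -1.38 ± 0.30 (adjusted p = 0.00914). The Pdk4 call ended without normal liver 1 (adjusted p = 0.0589).

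**Figure D5:**
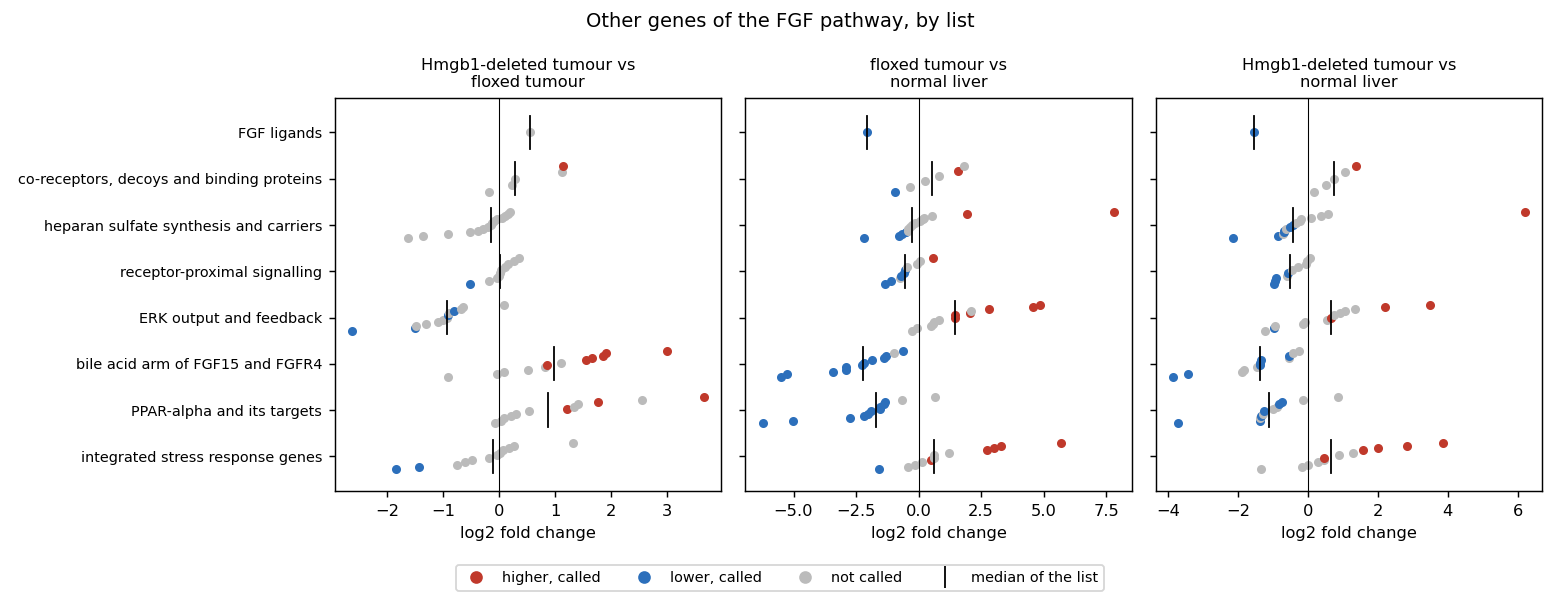
Log2 fold change of the tested genes of 8 pathway lists in the 3 comparisons, 1 point a gene, coloured by its call, with the median of each list as a bar. For Hmgb1-deleted against floxed tumours the ERK list has a median of -0.94 and the bile acid list of 0.98, and against normal livers the medians of the bile acid and PPAR-alpha lists lie below 0 in both tumour groups.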

How the data were processed

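Poly-A RNA of 12 tumours and 3 normal livers was sequenced, and the authors deposited raw read counts per gene symbol. The tools were HTSeq 0.6.1, Bowtie2 2.2.4, TopHat2 2.1.0 and bcl2fastq 1.8.4 with build mm9, per the submitters' processing notes. Settings, annotation and strand: not given in the sources used here. Of the 6 genes only Fgfr1 overlaps others (2 long noncoding RNAs that are not in the table). Groups came from the labels, and members and lists were chosen with earlier results of these data known.

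For each comparison genes were kept by filterByExpr, scaled by TMM and tested with edgeR 4.0.16 (R 4.3.3; robust quasi-likelihood F test, 2 groups a fit, no covariate), with Benjamini-Hochberg adjustment over all genes tested. SEs come from the F statistic. Hmgb1 was tested by exact permutation, and pairs of members by 100000 shuffles within groups (scipy 1.17.1). In ratios 0.5 was added to each count. The scripts were tested on simulated data. No library repeated another: within a group, chi-square per degree of freedom was at least 26.3.

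Named genes were the 6 members, Hmgb1, up to 4 called genes a list between tumour groups, up to 2 a list by smallest p in each comparison with normal liver, and the 3 genes most like each member. Some genes that this rule names are not reported here. Markers stand beside members where their levels moved.

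The alternatives were RLE factors, library totals, no filter, a filter of 1 CPM, DESeq2 1.42.0, all 15 samples in 1 fit, the replicate number as a block, each library left out, a pseudocount of 0.1 for Hmgb1 and 3 added in ratios. Against normal livers the block fit kept only numbers 1 to 3 of each group. Leaving out Hmgb1-deleted tumours 2 and 5 or 3, 4 and 6, an unblocked fit of numbers 1 to 3, and Hmgb1 without single libraries were chosen after seeing the data.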

Additional observations from a re-analysis of the deposited data

Results flagged for a closer look

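Hmgb1 in Hmgb1-deleted tumour 1 was 9.71 CPM, against 14.8 to 17.2 CPM in the other 5 Hmgb1-deleted tumours, a gap large enough for the sample to stand apart from its group. In the search of 14 groups of 6 samples (the 6 genes and Hmgb1 in both tumour groups) this was the only sample to do so, and chance flags about 1 in 20 groups. It rests on the TMM scaling: with library totals alone tumour 1 had 11.0 CPM, against 13.6 to 21.8 CPM in the other 5, and the gap was 0.241 of the group's range, against 0.683 with TMM and a critical value of 0.625.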

How the results depend on the processing

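Over the 6 genes and 3 comparisons, 305 of 342 recomputed values kept their direction and side of the threshold, 21 changed sign, 10 gained and 6 lost a call. For Hmgb1-deleted against floxed tumours Fgfr4 was -0.025 with RLE, -0.019 with no filter, -0.020 with DESeq2, -0.0026 in a joint fit of all 15 libraries and -0.34 when Hmgb1-deleted tumours 2 and 5 were left out. DESeq2 called 2063 genes and added Fgfr2 (-0.85) and Fgfr3 (1.39), and the fit of all 15 called 1629 and added Fgfr2 (-0.84). Without Hmgb1-deleted tumours 3, 4 and 6, Fgf21 (2.85), Fgfr2 (-1.25) and Fgfr3 (2.04) were called. Those tumours held the lowest Fgf21 of their group (1.17, 2.97 and 6.42 CPM). They were left out after seeing the data, so these calls are no test. For floxed tumours against normal livers the fit of all 15 ended the calls of Fgf21 (3.16) and Fgfr2 (0.76). For Hmgb1-deleted tumours against normal livers library totals gave Fgfr1 0.077 and Fgfr2 0.18. Without tumours 2 and 5 Fgfr1 was 0.21, Fgfr3 -0.40 and Fgfr4 -0.68 (called). Without tumours 3, 4 and 6 Fgfr1 was -1.06 (called) and Fgfr4 0.010. Both splits were chosen after seeing the data, so their calls are no test. Hmgb1 was -0.38 with library totals, not called. Library totals moved the median of all genes to 0.20, 0.15 and 0.33, against 0.02, 0.06 and 0.05, for Hmgb1-deleted against floxed tumours, floxed tumours against normal livers and Hmgb1-deleted tumours against normal livers. The causes were not tested.

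With 1 library left out, Hmgb1-deleted against floxed tumours ranged from 589 (without Hmgb1-deleted tumour 4) to 1054 genes called and Fgfr4 from -0.19 to 0.20. Floxed tumours against normal livers ranged from -0.76 to -0.47 for Fgfr3 and from 0.66 to 0.86 for Fgfr2. Hmgb1-deleted tumours against normal livers ranged from 2113 to 4912 genes called (2113, 2227 and 3109 without normal livers 1, 2 and 3), from 4.65 to 5.52 for Fgf21, from -0.52 to 0.057 for Fgfr1, from -0.20 to 0.10 for Fgfr2 and from -0.80 to -0.46 for Hmgb1.

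The groups share replicate numbers, but same-numbered samples correlated from -0.27 to 0.23, so the numbers were not taken as pairs. With the replicate block 860 genes were called for Hmgb1-deleted against floxed tumours. For floxed and Hmgb1-deleted tumours against normal livers it called 6579 and 3055. Against normal livers the block fit held only numbers 1 to 3 of each group, so it differs from the main fit in its samples as well. In it Fgfr1 was -0.10 and Fgfr3 was called (-0.57) for floxed tumours against normal livers. An unblocked fit of numbers 1 to 3 called 6886 and 3679 genes against normal livers. No other member's call changed with the block. Among the other named genes the block fit ended the calls of Cyp4a10 (adjusted p = 0.0716) and Trib3 (0.0819) between tumour groups. For Hmgb1-deleted tumours against normal livers it ended those of Flrt2 (0.0552), Rxra (0.0554) and Pdk4 (0.0556).

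Counts in the pathway lists moved too. PPAR-alpha genes had 3 higher between tumour groups, 6 with DESeq2, 5 with library totals and with all 15 samples, 2 with the block and 2 to 5 with 1 library left out; against normal livers 6 lower in Hmgb1-deleted tumours became 3 with library totals, 2 with the block and 1 to 7 with 1 library left out. Heparan sulfate genes, 6 lower in Hmgb1-deleted tumours than in normal livers, became 1 with library totals, 2 with the block and 2 to 6 with 1 library left out. Bile acid genes stayed at 4 to 6 higher and ERK genes at 4 to 7 lower between tumour groups with 1 library left out. For Hmgb1-deleted tumours against normal livers, leaving out 1 library gave 3 to 8 lower bile acid genes and 3 to 4 higher stress response genes. It gave 1 to 4 higher ERK genes and 2 to 5 lower genes directly behind the receptors. Correlations were also computed without the 2 tumours farthest from the median of the first-named gene, which can differ between genes. They changed sign for Klb with Fgfr3 (from -0.25 to 0.12) and Klb with Fgfr4 (from -0.04 to 0.69). The sign also changed for Fgf21 with Fgfr3 (from 0.64 to -0.13), Fgfr1 with Fgfr4 (from 0.35 to -0.55) and Fgfr2 with Fgfr4 (from -0.02 to 0.28). Without Hmgb1-deleted tumours 2 and 5 it changed for Fgf21 with Fgfr3 (-0.13), Fgfr1 with Fgfr3 (from -0.10 to 0.39) and Fgfr2 with Fgfr4 (0.014). With 7 to 29 counts of Fgf21 in normal livers, its fold changes there rest on few reads.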
